A study of Mus musculus with 82 samples.

Results

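The genes described are 8 markers and regulators of the neural lineage, Sox1, Pax6, Nes, Neurog1, Neurog2, Neurod1, Olig2 and Tubb3, out of 21523 protein-coding genes of the mouse (49214 genes of every type). They were chosen by symbol because of the part that Adnp, activity-dependent neuroprotective protein, plays in neural development, and each was found once in the gene table of the GRCm38.p6 assembly. The values are the peaks of Adnp and of the heterochromatin protein HP1γ that lay inside each gene or within 5, 20, 50 and 100 kb of its ends. The label "regulator" holds for the 6 transcription factors, whereas Nes encodes the intermediate filament nestin and Tubb3 a neuronal β-tubulin.

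The series holds 82 samples of mouse embryonic stem cells in 32 groups, profiled by RNA-seq, ChIP-seq and ATAC-seq, and the question for these genes is where Adnp and HP1γ lay around them in pluripotent cells. The cells were of a hybrid 129-C57BL/6 background, were untreated and were kept in 2i medium with LIF. The Adnp list was made from 3 pooled replicates of Adnp FlagAvi cells, in which Adnp carries a tag that is captured on streptavidin beads. The HP1γ list was made from 3 replicates of Cbx3 FlagAvi cells and 3 replicates of Cbx3 FlagAvi cells with a knockout of Adnp (Adnp KO), and it was restricted by the authors to peaks without the Adnp motif; Cbx3 encodes HP1γ. In which of the genotypes an HP1γ peak was seen is not known here. The names of the peaks point to the Adnp KO cells, so the list cannot be read as HP1γ in cells with Adnp.

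Both lists are pooled, so no position or count below has an error between replicates, no test between groups of samples was possible, and read depth is unknown. The Adnp list held 15026 peaks and the HP1γ list 2047. The authors gave each Adnp peak a score, whose kind is not stated, with a median of 21.2 (quartiles 13.9 and 33.6, range 3.66 to 565). It is used here only to rank peaks within that list, and the HP1γ list carries no such ranking. Stem cells in this medium are pluripotent and not neural, and the RNA-seq libraries were not analysed here, so no statement is made about how strongly the 8 genes were transcribed, nor could the cell type be checked on its marker genes.

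As background, Adnp is a zinc finger and homeodomain protein that binds DNA and, with the remodeller Chd4 and HP1 proteins, forms the complex called ChAHP. Mutations in the human gene cause a neurodevelopmental syndrome with intellectual disability and autism. During neural differentiation Sox1 and Pax6 mark the early neuroepithelium and nestin fills dividing progenitors. The proneural basic helix-loop-helix factors Neurog1 and Neurog2 and the neuronal differentiation factor Neurod1 drive progenitors into neurons through E-box sites. Olig2 specifies motor neurons and oligodendrocytes, and Tubb3 is switched on as neurons become postmitotic.

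The start regions of the 8 genes were free of both proteins' peaks. Of their 9 windows of 250 bases before an annotated start (Pax6 has 2 such starts), 0 overlapped an Adnp peak and 0 an HP1γ peak. Of the 21045 such windows of protein-coding genes, 247 overlapped an Adnp peak and 91 an HP1γ peak, so an overlap is rare anywhere. Printed here are the windows of Tubb3 and Neurog1, the members with the closest Adnp peaks, and of Pax6 and Neurod1, the members with the most distant ones. The sequences are from RefSeq (GRCm38.p6), run 5′ to 3′ on the strand of the gene and end at the base before the start. Capitals mark the E-box CANNTG, the site of the proneural factors.
Tubb3, chr8:123411303-123411552, plus strand: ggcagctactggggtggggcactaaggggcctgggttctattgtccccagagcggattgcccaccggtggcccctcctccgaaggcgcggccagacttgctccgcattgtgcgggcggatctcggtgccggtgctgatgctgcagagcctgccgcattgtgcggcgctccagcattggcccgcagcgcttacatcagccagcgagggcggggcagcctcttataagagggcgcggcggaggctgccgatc
Neurog1, chr13:56252181-56252430, minus strand: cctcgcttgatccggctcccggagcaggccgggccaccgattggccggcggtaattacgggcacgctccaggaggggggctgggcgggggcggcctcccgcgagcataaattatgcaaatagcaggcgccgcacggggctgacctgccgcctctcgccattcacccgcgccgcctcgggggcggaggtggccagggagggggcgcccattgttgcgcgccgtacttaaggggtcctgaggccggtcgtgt
Pax6, second start, chr2:105682213-105682462, plus strand: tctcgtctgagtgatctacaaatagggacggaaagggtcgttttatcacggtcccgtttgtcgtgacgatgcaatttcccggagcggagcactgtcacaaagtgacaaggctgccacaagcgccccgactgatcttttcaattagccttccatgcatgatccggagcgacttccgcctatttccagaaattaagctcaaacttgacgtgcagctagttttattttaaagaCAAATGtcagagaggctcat
Neurod1, chr2:79456637-79456886, minus strand: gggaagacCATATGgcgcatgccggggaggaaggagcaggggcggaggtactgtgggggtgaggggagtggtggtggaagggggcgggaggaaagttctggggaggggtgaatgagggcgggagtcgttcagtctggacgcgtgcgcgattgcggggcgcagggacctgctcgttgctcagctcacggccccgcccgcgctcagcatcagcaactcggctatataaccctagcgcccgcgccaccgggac
The E-box was present in 2 of the 9 windows, as CAAATG before the second start of Pax6 and as CATATG in the Neurod1 window; both strands are covered because CANNTG is its own reverse complement. At least 1 E-box occurred in 62.8% of all windows. Most of the members' windows had more CpG and a higher GC content than the median window. The Tubb3 window held 21 CpG at 68.0% GC, that of Neurog1 29 CpG at 71.2% GC, that of Neurod1 22 CpG at 67.6% GC and the second window of Pax6 15 CpG at 47.6% GC. The medians over all windows were 10 CpG and 55.6% GC. Of the other windows, that of Neurog2 was the one with fewer CpG than the median, at 8. Sox1 had 29 CpG, Olig2 22, Nes 15 and the first start of Pax6 also 15.

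Of the Adnp peaks within 100 kb of a member, 3 could be read at least in part, because they overlapped the start window of a neighbouring gene. They were a peak near Nes at the start of Hdgf, another near Nes at the start of Naxe, and the peak nearest to Olig2. The last is shown because it was the one of the 3 with a match to the motif of Adnp. It spans chr16:91200573-91200854, and the stretch shown is the part that lies before the start of Gm41492, on the minus strand. Capitals mark a match to the motif described for Adnp, taken from background knowledge in a relaxed form with free positions and searched for after the data had been seen.
Olig2 upstream peak, chr16:91200573-91200802, minus strand: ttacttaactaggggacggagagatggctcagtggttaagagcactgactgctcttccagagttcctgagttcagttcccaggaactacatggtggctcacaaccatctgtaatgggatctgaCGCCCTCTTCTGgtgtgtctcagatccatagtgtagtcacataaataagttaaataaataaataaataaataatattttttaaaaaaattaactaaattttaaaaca
The motif was found once in these 230 bases, as CGCCCTCTTCTG on the strand shown, in a stretch of 36.5% GC. No match was found in the 89 bases read at Hdgf or the 250 bases read at Naxe. The motif was searched on both strands, and a match to it can overlap an E-box. As background, stretches of this kind occur in short interspersed repeats of the mouse genome, which were not annotated here. Over all start windows the motif was found in 1.07%, in 11 of the 247 that overlapped an Adnp peak (4.45%) and in 1.03% of those that overlapped none. The windows that overlapped an Adnp peak also had a higher median GC content (60.8% against 55.6% over all windows) and more CpG (16 against 10). What base composition contributes to the motif counts was not tested. None of the 9 member windows held the motif, which says no more than that its letters are not there.

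Across the 8 genes, the number with an Adnp peak went from 1 inside the gene to 6 within 100 kb, as the map of peaks around the genes shows. In every window the exact interval of the members' share contained the share of all protein-coding genes. An Adnp peak lay inside 1 of 8 members (12.5%, exact 95% Clopper-Pearson interval 0.316% to 52.7%), against 20.7% of protein-coding genes. The same single gene, Tubb3, had a peak within 5 kb, against 29.2% of protein-coding genes. Within 20 kb the count was 2 of 8 (25%, interval 3.19% to 65.1%), with Neurog1 added, against 43.8%. Within 50 kb it was 5 of 8 (62.5%, interval 24.5% to 91.5%), with Nes, Neurog2 and Olig2 added, against 57.4%. Within 100 kb it was 6 of 8 (75%, interval 34.9% to 96.8%), with Sox1 added, against 66.9%, which left Pax6 and Neurod1 without one. The intervals describe counting error alone, since genes are not replicates and the members were chosen with earlier results of these data known. A deficit close by or an excess farther out was not tested. The members are also short, with a median length of 4.02 kb against 17.4 kb for protein-coding genes. Measured from gene starts, where gene length does not enter, the counts were 1, 2, 5 and 6 of 8 within 5, 20, 50 and 100 kb, against 13.6%, 34.2%, 51.8% and 63.4% of 17274 genes.

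**Figure D1:**
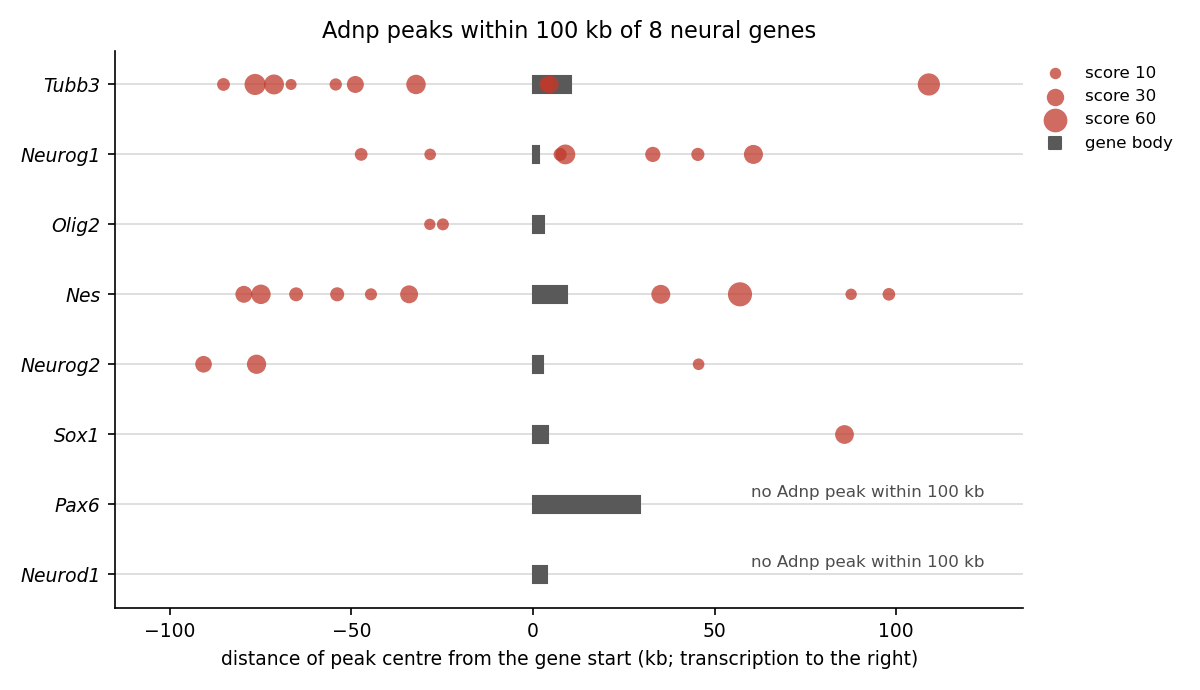
Adnp peaks within 100 kb of the ends of the 8 genes, drawn as the distance of the peak centre from the gene start in kb with transcription to the right; circle area grows with the authors' score and the dark bar is the gene body. Tubb3 holds 2 peaks in its body, Neurog1 has 2 just beyond its end, and Pax6 and Neurod1 have none in the window.

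In all, 33 Adnp peaks lay within 100 kb of a member, of which 2 lay inside, 19 upstream and 12 downstream. Their scores ran from 9.06 to 62.0 with a median of 22.1, close to the list's median of 21.2, and 18 of the 33 reached that median. Their median width was 383 bp, against 396 bp for the list. For 8 of the 33 the member was the nearest protein-coding gene, and 19 lay inside a gene of some type. Most of the peaks near these genes were therefore nearer to, or inside, another gene.

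Of the neuroepithelial genes, Sox1, whose product is among the earliest transcription factors of the neural plate, lies at chr8:12395519-12399555. It had 1 Adnp peak within 100 kb, 81.4 kb downstream at chr8:12480964-12481286, with a score of 35.6 that exceeded 77.1% of the list. Sox1 was itself the nearest protein-coding gene of that peak. A nearer Adnp peak was found for 64.1% of protein-coding genes. On the other side the next peak was 471 kb away, which made a stretch of 556 kb without an Adnp peak around Sox1, longer than 54.5% of the stretches around protein-coding genes with no Adnp peak inside. Within 1 Mb there were 20 Adnp peaks and 26 other protein-coding genes.

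Pax6, a paired-box factor that patterns the eye and forebrain, stood in the longest stretch. The gene lies at chr2:105668896-105698410, and its nearest Adnp peak was 828 kb upstream, at chr2:104840849-104841371 inside Prrg4, with a score of 34.7. Of protein-coding genes, 91.5% had a nearer one. The next peak on the other side was 6559 kb away, so that 7.42 Mb around Pax6 held no Adnp peak. That stretch was longer than 97.1% of those around the 16729 protein-coding genes with no peak inside and a peak on both sides, whose median was 406 kb. These values are counted once per gene, so a stretch shared by several genes was counted several times. The stretch around Pax6 held 65 protein-coding genes wholly and 3 HP1γ peaks. It was therefore not a stretch without genes, although the 1 Mb around Pax6 held 14 other protein-coding genes against a median of 29.

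Nes, the marker of dividing progenitors at chr3:87971093-87980451, differed from both. It had 4 Adnp peaks within 50 kb and 10 within 100 kb, 6 upstream and 4 downstream, among closely packed genes. The nearest lay 25.6 kb downstream at chr3:88006029-88006548, with a score of 36.3, and was nearest to Bcan, the gene of the brain proteoglycan brevican, at 3.85 kb. The highest score, 62.0, which exceeded 92.3% of the list, was at chr3:88027858-88028256, 47.4 kb away and nearest to Hapln2. Nes had the most Adnp peaks of the 8 within 1 Mb (49), and the most protein-coding genes (57).

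Of the proneural factors, Neurog1, at chr13:56250478-56252180 on the minus strand, had the closest peaks after Tubb3. The nearest was 5.62 kb beyond the end of the gene, at chr13:56244546-56244858, with a score of 14.7 that was above 27.9% of the list. A higher-scoring one lay 7.04 kb beyond the end, at chr13:56243072-56243442 inside the noncoding gene 4930550C17Rik, with a score of 40.3 that was above 81.7% of the list. For both, Neurog1 was the nearest protein-coding gene, and 30.2% of protein-coding genes had a nearer peak. Another 5 peaks lay between 28.1 and 58.8 kb from the gene, with scores from 10.6 to 36.8.

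Neurog2, the close relative of Neurog1 in the dorsal forebrain and spinal cord, lies at chr3:127632733-127635636 and had 3 peaks within 100 kb, all inside neighbouring genes. The nearest was 42.9 kb downstream in Alpk1, at chr3:127678544-127678857, with a low score of 10.6. The other 2 were 75.5 kb upstream in Zgrf1, with a score of 37.7, and 90.1 kb upstream in Larp7, with a score of 26.9. With 12 Adnp peaks and 8 other protein-coding genes within 1 Mb, Neurog2 had more peaks than genes around it, and all 12 lay within 500 kb.

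Neurod1, which acts in neurons and in endocrine cells of the pancreas and gut, lies at chr2:79452637-79456636 and had the most distant Adnp peak of the 8. The peak was 994 kb upstream, at chr2:80450876-80451206, with a score of 19.1, and was nearest to Frzb, a secreted Wnt antagonist, at 3.48 kb. Of protein-coding genes, 93.3% had a nearer one. The other side was free of peaks for 1764 kb, and the stretch of 2.76 Mb held 12 protein-coding genes and 0 HP1γ peaks. Neurog1, Neurog2 and Neurod1 thus had their nearest Adnp peaks at 5.62, 42.9 and 994 kb and showed no common distance.

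Olig2, at chr16:91225550-91228677, had 2 Adnp peaks within 100 kb, both upstream and both of low score. The nearer one, whose sequence is printed above, was 24.7 kb away with a score of 11.6. The other was 28.2 kb away, at chr16:91196957-91197322 inside Gm41492, with a score of 9.79. Olig2 was the nearest protein-coding gene of both. On the other side the next peak was 164 kb away. Within 1 Mb there were 42 Adnp peaks beside 26 other protein-coding genes, where Sox1 with the same 26 genes had 20 peaks.

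Tubb3, at chr8:123411553-123422015, was the one member with Adnp peaks in its body. One spanned chr8:123415209-123415546 with a score of 22.1, above 52.2% of the list, and its centre was 3.82 kb from the start. The other spanned chr8:123415970-123416448 with a score of 31.4, above 71.9% of the list, and its centre was 4.66 kb from the start. No other annotated gene overlapped these peaks, and whether they lay in an exon or an intron was not determined, since exons were not used here. Outside the gene, 7 peaks lay upstream, 5 of them inside Spire2 and 1 inside Tcf25, and 1 lay 97.8 kb downstream inside Gas8 with a score of 51.7. The scores upstream ran from 9.06 to 46.3, so that the peaks within Tubb3 were not the highest near it.

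Ordered by the nearest Adnp peak, the genes were Tubb3 (inside), Neurog1 (5.62 kb), Olig2 (24.7 kb), Nes (25.6 kb), Neurog2 (42.9 kb), Sox1 (81.4 kb), Pax6 (828 kb) and Neurod1 (994 kb). Olig2 and Nes were 1 kb apart or less, and without replicate lists no pair in this order could be tested. The median over the 8 was 34.2 kb, against 30.6 kb over protein-coding genes (quartiles 2.31 and 195 kb), and 4 of the 8 were farther from a peak than the median gene. From gene starts the medians were 39.7 kb for the members and 45.6 kb for protein-coding genes. The median of the 8 genes was thus close to that of protein-coding genes. The spread among them ran from 0 to 994 kb, with Pax6 and Neurod1 far beyond the upper quartile. With Adnp peaks at or above the median score alone, the members' median was 78.4 kb. No median over protein-coding genes is given for that setting.

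The number of Adnp peaks in the wider neighbourhood ranged from 1 around Neurod1 to 49 around Nes. Between these were Pax6 with 6, Neurog2 with 12, Sox1 with 20, Neurog1 with 29, Olig2 with 42 and Tubb3 with 47 peaks within 1 Mb of the gene's centre. The median over protein-coding genes was 17 (quartiles 6 and 33), and 6.93% of them had 0. Members with more genes around them tended to have more peaks, though not in every pair. Spearman's rho between Adnp peaks and other protein-coding genes within 1 Mb was 0.886 over the 8 members and 0.516 over all protein-coding genes, both as descriptions, since the counts share the same windows and neighbouring genes share peaks.

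**Figure D2:**
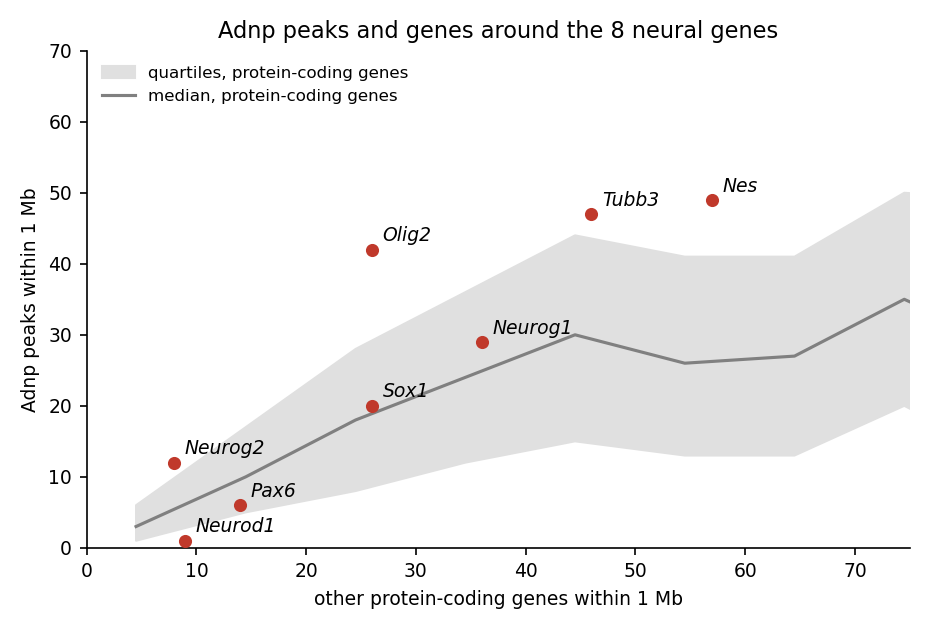
Adnp peaks (vertical axis) against other protein-coding genes (horizontal axis), both counted within 1 Mb of the centre of each of the 8 genes; the line and grey band are the median and quartiles of protein-coding genes in bins of gene number. Tubb3 (47 peaks), Nes (49), Olig2 (42) and Neurog2 (12) lie above the band, and Neurod1 (1) lies at its lower edge.

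HP1γ peaks without the Adnp motif were not found near any member, in a list whose peak names point to the Adnp KO cells. Of the 8 genes, 0 had such a peak inside or within 5, 20, 50 or 100 kb (exact 95% interval 0% to 36.9%). Of protein-coding genes, 2.86%, 3.88%, 6.83%, 12.1% and 19.4% had one in these windows, and the interval contains each of these shares. Measured from gene starts the count was also 0 of 8 within 5, 20, 50 and 100 kb, against 1.4%, 4.19%, 9.63% and 17.0%. The nearest HP1γ peaks were 159.8 kb from Nes, 233 kb from Tubb3, 336 kb from Olig2, 458 kb from Sox1, 813 kb from Neurog1, 2124 kb from Neurog2, 2791 kb from Pax6 and 3741 kb from Neurod1. The median was 635 kb, against 422 kb for protein-coding genes (quartiles 142 and 1045 kb), and 5 of the 8 were farther than the median gene. All 8 were nearer to an Adnp peak than to an HP1γ peak, as were 84.3% of protein-coding genes. The lists differ in length, with 15026 Adnp and 2047 HP1γ peaks, and the HP1γ list leaves out peaks with the Adnp motif. What either contributes was not tested. Within 1 Mb, Neurog2, Pax6 and Neurod1 had 0 HP1γ peaks, like 26.8% of protein-coding genes, and Nes and Sox1 had most, with 7 each.

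**Figure D3:**
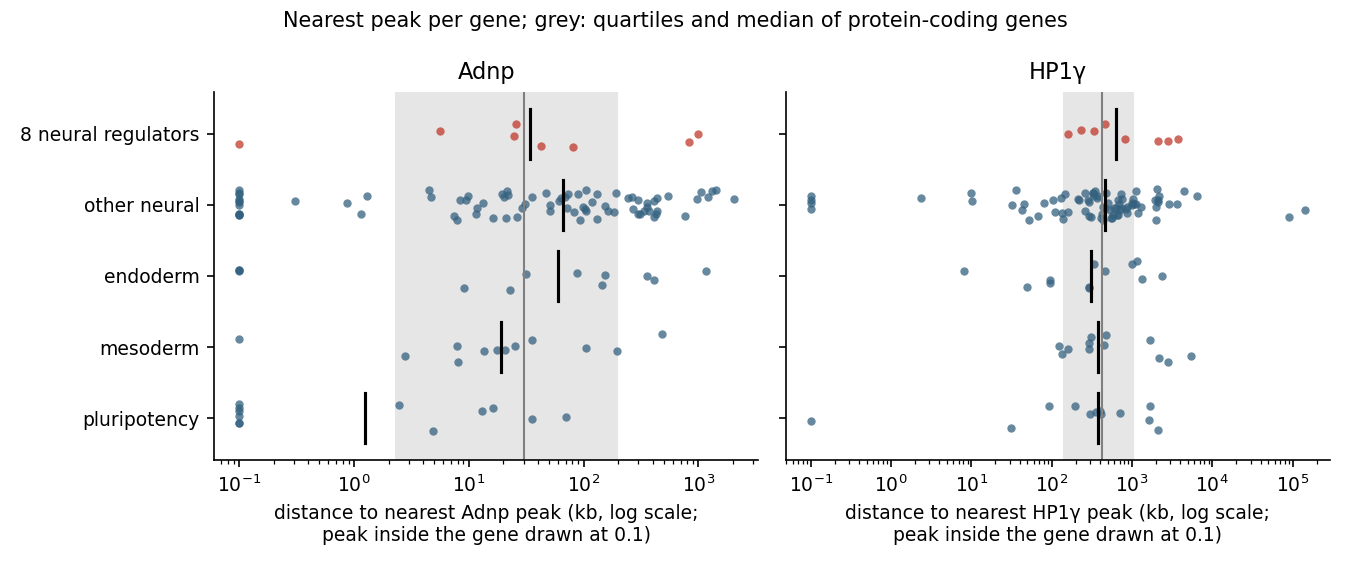
Distance from each gene to its nearest Adnp peak (left) and HP1γ peak (right) in kb on a log axis, 1 point per gene, with genes that hold a peak drawn at 0.1 kb; black bars are list medians, and the grey line and band are the median and quartiles of protein-coding genes. The 8 neural genes (red) have a median of 34.2 kb for Adnp and 635 kb for HP1γ, with Pax6 and Neurod1 at the far end of both.

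The 8 genes were set beside 80 other genes of neural development, listed by role. Of these 80, 11 (13.8%) held an Adnp peak, 17 (21.2%) had one within 5 kb, 27 (33.8%) within 20 kb, 36 (45.0%) within 50 kb and 47 (58.8%) within 100 kb. Each share was below that of all protein-coding genes in the same window (20.7%, 29.2%, 43.8%, 57.4% and 66.9%), but the exact 95% interval excluded that share at 50 kb alone (33.8% to 56.5%). The list was chosen with earlier results of these data known and several windows were read, so the exclusion at 50 kb is a description. From tabulated gene starts, 24 of 57 had a peak within 50 kb, against 51.8% of protein-coding genes. The median distance from the 80 genes to an Adnp peak was 66.5 kb. The roles differed widely, as the plot of distances by role shows, though with 6 to 20 genes in a role and no replicate lists the differences were not tested.

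Among genes of the Rest complex, which represses neuronal genes outside neurons, 5 of 6 had an Adnp peak within 5 kb (exact 95% interval 35.9% to 99.6%, against 29.2% of protein-coding genes), and the median distance was 0.432 kb. Gene length enters this count. From tabulated starts the nearest peaks were 1.14 kb from Kdm1a, 4.54 kb from Rcor2, 6.54 kb from Ctdsp1, 13.7 kb from Rcor1 and 64.1 kb from Sin3a. Rest had no tabulated start, and 13.6% of protein-coding genes had a peak within 5 kb of one. The highest scores within 20 kb were 93.1 at Rcor2, 82.4 at Ctdsp1, 64.2 at Kdm1a and 60.2 at Rest, above the list's upper quartile. At Rcor1 the highest was 27.9, below that quartile. Each of these values is the highest of 2 or 3 peaks, whereas the quartile is over single peaks, so the measures are unlike. Within 5 kb the highest were 64.2 at Kdm1a, 48.7 at Rcor2, 17.4 at Rcor1, 15.3 at Ctdsp1 and 11.7 at Rest. Those of Rcor1, Ctdsp1 and Rest were below the list's median of 21.2. Kdm1a, a histone demethylase, held 2 peaks, and Rest itself held 1 with a score of 11.7. Of the 16 genes of Notch signalling and of the Hes and Id families, 8 had a peak within 20 kb, or 50% (interval 24.7% to 75.3%). That is near the 43.8% of protein-coding genes, and the median distance was 20.3 kb. Within Dll3, a Notch ligand-like inhibitor, the peak at chr7:28298610-28299453 had a score of 549.8, the second highest in the list. Id3 had a highest score of 63.3, the Notch effector Rbpj 41.0 and the receptor Notch3 27.6.

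Genes that act in neurons or their precursors were counted in the same way, against 43.8% of protein-coding genes within 20 kb. Of 15 genes of the neuronal cytoskeleton and other postmitotic markers, the group nearest in kind to Tubb3, 6 had a peak within 20 kb (40%, near that share), with a median distance of 47.1 kb. Mapt, the gene of tau, held 4 peaks with a highest score of 26.7, and Tubb2b, Nefh and Elavl3 had highest scores of 20.9, 20.2 and 15.0. Of 20 genes of neuroepithelium and progenitors, the kind of Sox1, Pax6 and Nes, 5 had a peak within 20 kb (25%, interval 8.66% to 49.1%), with a median of 136 kb. Msi1, an RNA-binding protein of progenitors, had 10 peaks within 20 kb, 5 of them inside. Its highest score within 20 kb was 175, for a peak outside the gene, and the highest within 5 kb was 42.6. Gbx2, Pax7 and Sox21 had highest scores within 20 kb of 37.0, 28.7 and 15.9. Of 9 other proneural and neuronal helix-loop-helix genes, 3 had a peak within 20 kb (33.3%, interval 7.49% to 70.1%), with a median of 105 kb. These were Neurod2 with a score of 23.2, Atoh7 with 18.7 and Nhlh1 with 8.10. None of 14 oligodendrocyte, motor neuron and glial factors, the kind of Olig2, had an Adnp peak within 20 kb (interval 0% to 23.2%), and 8 had one within 100 kb (57.1%, against 66.9% of protein-coding genes).

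**Figure D4:**
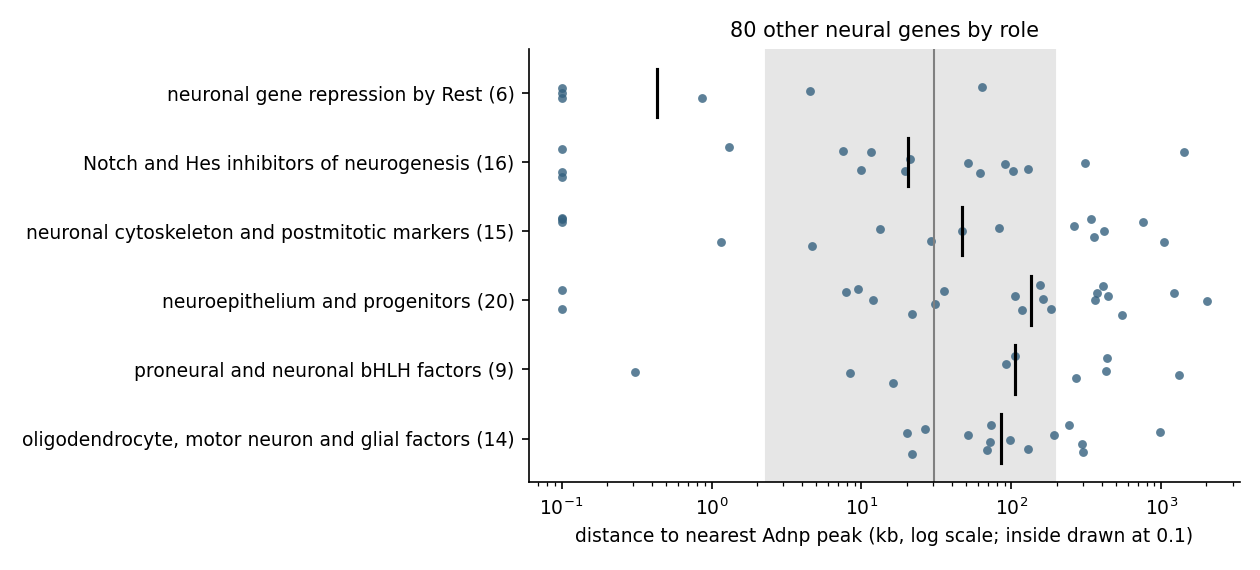
Distance to the nearest Adnp peak in kb on a log axis for the 80 other neural genes, 1 point per gene, by role with the number of genes in parentheses; genes that hold a peak are drawn at 0.1 kb, black bars are medians, and the grey line and band are the median and quartiles of protein-coding genes. Medians run from 0.432 kb for the Rest complex to 136 kb for neuroepithelial and progenitor genes.

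HP1γ peaks lay near the other neural genes about as often as near protein-coding genes at large. Of the 80, 4 held one (5.0%, interval 1.38% to 12.3%, against 2.86%), 7 had one within 20 kb (8.75%, interval 3.59% to 17.2%, against 6.83%) and 14 within 100 kb (17.5%, interval 9.91% to 27.6%, against 19.4%). The 4 that held one were the Notch ligand Jag1, Rbpj, Mapt and the neurofilament gene Nefm. Rbpj and Mapt also held or neighboured Adnp peaks. Of the 14 oligodendrocyte, motor neuron and glial factors 0 had an HP1γ peak within 100 kb, and the interval of 0% to 23.2% contains the 19.4% of protein-coding genes.

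Regulators of other fates served as further comparison, with 12 genes in each list. Within 20 kb an Adnp peak lay near 4 endoderm, 6 mesoderm and 10 pluripotency regulators, and within 100 kb near 7, 9 and 12. The mesoderm genes Mesp1 and Mesp2 were both counted within 20 kb through the same peak. Sox2 is in both the pluripotency list and the 80 other neural genes. The endoderm shares (33.3% and 58.3%) and mesoderm shares (50% and 75%) have intervals that contain the 43.8% and 66.9% of protein-coding genes, whereas those of the pluripotency list (51.6% to 97.9% and 73.5% to 100%) lie above them. The lists were chosen with earlier results of these data known, and genes are not replicates. The intervals therefore describe these counts and test nothing. The median distances were 59.9, 19.1 and 1.24 kb, beside 34.2 kb for the 8 neural genes. At 20 kb the 8 neural genes, with 25%, were thus below all 3 lists, and at 100 kb, with 75%, they were level with mesoderm and above endoderm. An exact interval of 3.19% to 65.1% on 2 of 8 genes spans the shares of the endoderm and mesoderm lists, and differences between lists were not tested. Of the germ-layer genes with a peak within 5 kb, Gata4 (highest score 72.7) and Mesp1 (106) exceeded every peak within 100 kb of the 8 neural genes, while Foxa3 (18.3), Hand1 (11.8) and Sox17 (7.69) were below the list's median of 21.2. HP1γ peaks lay within 100 kb of 4 endoderm, 0 mesoderm and 3 pluripotency regulators, and the interval of each share contains the 19.4% of protein-coding genes.

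**Figure D5:**
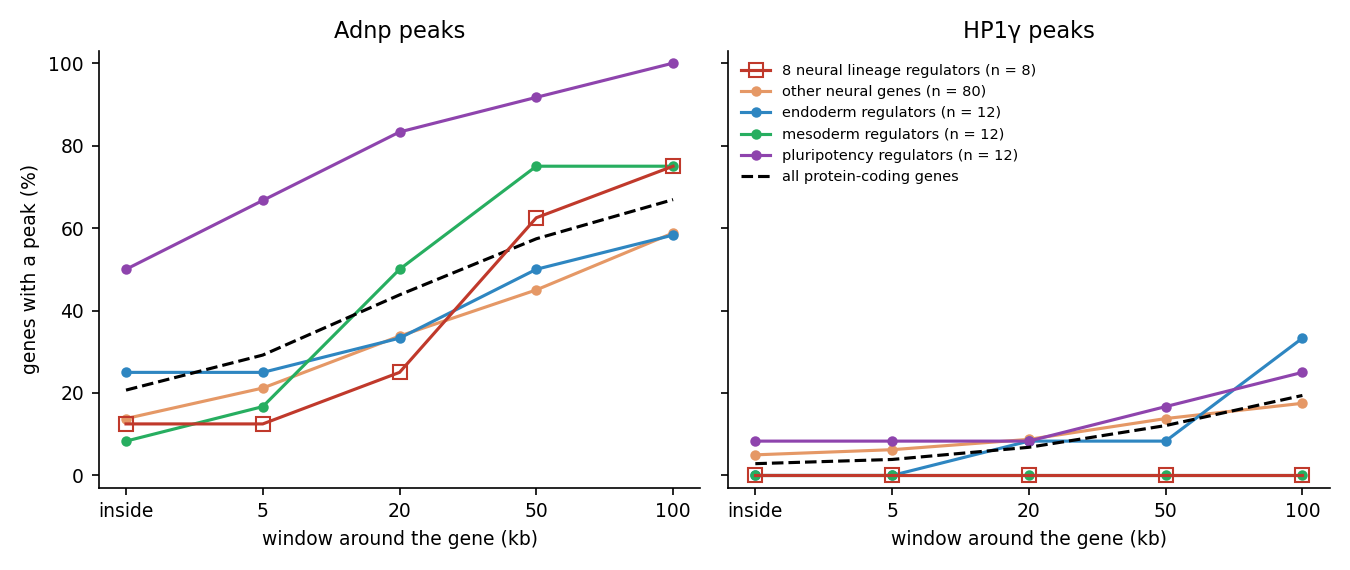
Share of genes in percent with an Adnp peak (left) or HP1γ peak (right) inside the gene or within 5, 20, 50 and 100 kb, by gene list, with all protein-coding genes dashed. The 8 neural genes (open squares) rise from 12.5% inside to 75% at 100 kb for Adnp and stay at 0 for HP1γ.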

How the data were processed

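The deposited values are 2 peak lists with positions on mm10 (GRCm38). Tools named without a role, per the submitters' processing notes, are MACS2, edgeR, Bowtie 1.0.0, STAR 2.5.0a and bcl2fastq 1.17. How peaks were called and filtered is not given in the sources used here. For each Adnp peak the score is the authors', as deposited, and the HP1γ score is 0 in every row. Peak names are numbered up to 31188 and 2701, so both lists are subsets of longer ones, and HP1γ names point to the Adnp knockout.

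Genes came from the RefSeq GRCm38.p6 table (those on autosomes or X with a start of at least 3 Mb), and strands, starts and sequences from its promoter table, which matched all 8 members. Distances ran from the nearest edge of a peak to the gene body and were 0 where at least 1 bp was shared. Exact Clopper-Pearson 95% intervals cover counting error only, since neither genes nor peaks are replicates. The search for distances was tested on simulated data and recovered 200 of 200. Named genes were the members, the gene nearest to each member's nearest peak, up to 4 per neural role within 20 kb and up to 3 per comparison list within 5 kb by score, and up to 4 neural genes with an HP1γ peak within 20 kb; of the last, the 4 with a peak inside were named. Members, lists and rules were chosen with earlier results of these data known. Alternatives were distances from gene starts, peak centres, peaks within 10 kb joined, Adnp peaks at or above the median score, genes of every type as background and, added after the data were seen, the Adnp list without 359 peaks placed after its sorted block. Python 3.11.15, NumPy 2.4.6, pandas 2.3.3, SciPy 1.17.1 and matplotlib 3.10.9 were used.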

Additional observations from a re-analysis of the deposited data

How the results depend on the processing

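With Adnp peaks at or above the median score alone, the members with a peak within 50 kb went from 5 to 3 and their median distance from 34.2 to 78.4 kb; the nearest peak was then 75.5 kb from Neurog2, 180 kb from Olig2 and 1070 kb from Neurod1. Under the same setting the other neural genes with a peak went from 11 to 6 inside, 17 to 8 within 5 kb, 27 to 15 within 20 kb, 36 to 23 within 50 kb and 47 to 31 within 100 kb. Endoderm regulators went from 3 to 1 inside, 3 to 1 within 5 kb, 4 to 2 within 20 kb and 7 to 4 within 100 kb, mesoderm regulators from 2 to 1 within 5 kb and 6 to 3 within 20 kb, and pluripotency regulators from 6 to 3 inside and 8 to 5 within 5 kb. Fewer peaks are counted in this setting by construction, and the shares of protein-coding genes fell to 12.9% inside and 18.5%, 29.8%, 43.3% and 54.8% within 5, 20, 50 and 100 kb. From gene starts, with either gene end taken where the promoter table held no start (it held one for 57 of the 80 other neural genes and 9 of the 12 pluripotency regulators), Adnp counts within 5 kb went from 17 to 9 for other neural genes and 8 to 4 for pluripotency regulators (5 of 57 and 2 of 9 with tabulated starts alone, against 13.6% of protein-coding genes); HP1γ counts went from 5 to 2 within 5 kb and 7 to 4 within 20 kb for other neural genes, and from 1 to 0 in both windows for pluripotency regulators. Peak centres (52 values), joined peaks (46) and the list without its late block (5) kept every value within 1.5 times. With genes of every type as background, 11.7% held an Adnp peak and 56.6% had one within 100 kb. No paired analysis was possible because each list is pooled over replicates, and for the same reason no replicate could be left out.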
